A study of Mus musculus with 8 samples.

Results

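The enzymes that make serine and move its one-carbon units through folate were examined in type 1 conventional dendritic cells (cDC1), dendritic cells that excel at showing antigen to CD8 T cells. The set has 10 genes, taken by symbol from the array annotation, out of 19505 named genes on the array: Phgdh, Psat1, Psph, Shmt1, Mthfd1, Shmt2, Mthfd1l, Mthfd2, Mthfd2l and Aldh1l2. Each is read by 1 probe set, and all 10 were measured. The cells came from the spleens of naive wild-type C57BL/6 mice and had been sorted by a dye signal labelled TMRM/MG, with 4 arrays of the high and 4 of the low fraction. TMRM accumulates in mitochondria according to their membrane potential, and what MG stands for is not spelled out. No label gives the age or number of the animals, or says whether arrays came from separate animals. The p-values therefore cover the spread between these arrays and no more, and part of it may be technical.

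Serine is made in the cytosol from the glycolytic intermediate 3-phosphoglycerate by PHGDH, PSAT1 and PSPH in turn. Serine hydroxymethyltransferase (SHMT1 in the cytosol, SHMT2 in the mitochondrion) then moves a carbon from serine to tetrahydrofolate, and the folate-bound carbon is oxidised to formate in the mitochondrion and used in the cytosol for purine and thymidylate synthesis. The mitochondrial arm depends on NAD regeneration by the respiratory chain, and the transcription factor ATF4 is a known activator of several of these genes. The comparison of the high with the low fraction asks whether transcripts of the enzymes differ with the dye signal, and whether the cytosolic and mitochondrial enzymes differ alike.

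In TMRM/MG-high cDC1 the serine synthesis gene Psat1 was higher, by 0.53 on the log2 scale (1.44-fold, standard error, SE, 0.11, limma adjusted p = 0.0192, n = 4 arrays each). None of the other 9 passed the test, and 5.28% of all 22206 probe sets tested were called higher. The cytosolic folate genes Mthfd1 and Shmt1 differed by 0.43 and 0.30, and the mitochondrial gene Mthfd2 by 0.22. The remaining 6 differed by -0.12 to 0.12.

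Psat1 and Mthfd2 were the members whose high and low arrays did not overlap (9.7% of all probe sets had every high array above every low array), so the bases before their start sites are shown. The 250 bases before each annotated start are from RefSeq (assembly GRCm38.p6), which had 10 such windows for 9 of the 10 genes and 2 of them for Psat1. All 3 windows lie on the minus strand and are printed 5′ to 3′ along the gene. Capitals mark the CCAAT box, a common promoter element, on either strand (CCAAT or ATTGG).
Psat1, chr19:15925060-15925309: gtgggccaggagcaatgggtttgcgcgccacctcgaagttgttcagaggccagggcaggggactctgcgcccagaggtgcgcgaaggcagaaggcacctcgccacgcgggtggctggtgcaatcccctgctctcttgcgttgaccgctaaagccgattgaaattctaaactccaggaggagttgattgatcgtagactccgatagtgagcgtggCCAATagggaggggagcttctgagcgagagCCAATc
Psat1, second start, chr19:15924623-15924872: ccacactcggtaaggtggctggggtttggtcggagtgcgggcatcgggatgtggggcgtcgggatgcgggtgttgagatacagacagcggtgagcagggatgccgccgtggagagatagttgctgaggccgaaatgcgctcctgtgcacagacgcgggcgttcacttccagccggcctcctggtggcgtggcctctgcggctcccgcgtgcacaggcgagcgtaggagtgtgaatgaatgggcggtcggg
Mthfd2, chr6:83317605-83317854: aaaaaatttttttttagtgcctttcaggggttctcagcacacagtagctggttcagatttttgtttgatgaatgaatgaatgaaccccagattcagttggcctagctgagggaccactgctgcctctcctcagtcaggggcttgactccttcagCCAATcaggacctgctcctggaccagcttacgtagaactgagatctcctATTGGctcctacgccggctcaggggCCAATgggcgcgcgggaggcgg

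A CCAAT box was found in 1 of the 2 Psat1 windows, at 36 and 6 bases before the start, and at 96, 47 and 22 bases before the Mthfd2 start. A CCAAT box was in 6 of the 10 member windows, against 33.8% of 32851 windows of the same length across all genes. These 6 windows belong to 6 of the 9 genes (Psat1, Mthfd2, Phgdh, Psph, Shmt1 and Mthfd1). Shmt2, Mthfd1l and Mthfd2l had none. The core letters of the ATF4 composite element, TGATGNAA on either strand, were in 0 of the 10 member windows and 3.45% of all windows. The E-box CACGTG, a MYC family motif, was in 0 of 10 and 6.02%. The GC box GGGCGG (either strand) was in 5 of 10 windows, of 5 genes, and in 32.7% of all windows. CCAAT and GC box matches did not overlap each other in these windows, and a match describes the window only.

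The serine synthesis genes are the first group. PHGDH commits 3-phosphoglycerate to serine synthesis. Its gene read 7.38, 7.11, 6.93 and 7.24 in low replicates 1 to 4 and 7.28, 7.27, 7.16 and 7.44 in high replicates 1 to 4 (log2 signal). The groups overlapped, and both lay near the background: the high arrays exceeded 58.5% and the low arrays 58.4% of the 5222 negative control probe sets, which sit in introns. The difference was 0.12 (SE 0.11, 95% interval -0.11 to 0.36, limma adjusted p = 0.52).

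PSAT1 transfers an amino group from glutamate and yields 2-oxoglutarate as a by-product. Its gene read 8.24, 7.84, 8.42 and 8.14 in the low arrays and 8.72, 8.69, 8.65 and 8.68 in the high arrays. On average the high arrays exceeded 82.9% and the low arrays 76.6% of the negative controls. Every high array was above every low array, and the high arrays lay closer together (SD 0.030) than the low arrays (SD 0.24). The means were 8.69 and 8.16, and the 95% interval of the difference was 0.28 to 0.77. The call was kept in 6 of 8 fits that each left out 1 array. It was lost without high replicate 2 (0.52, adjusted p = 0.0594) or high replicate 3 (0.54, adjusted p = 0.0543), by limma, and in a test with an unmoderated variance (adjusted p = 0.172).

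PSPH releases free serine in the last step. Its gene read 9.82, 9.87, 9.86 and 9.91 in the low arrays and 10.1, 9.96, 9.97 and 9.88 in the high arrays. It had the smallest spread of the 10 within groups (pooled SD 0.059), and high replicate 4 lay below low replicate 4, so the groups overlapped. The difference was 0.10 (SE 0.077, 95% interval -0.065 to 0.27, limma adjusted p = 0.44). Of the 3 serine synthesis genes, the middle step alone passed the test; whether it differed more than the other 2 was not tested.

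**Figure D1:**
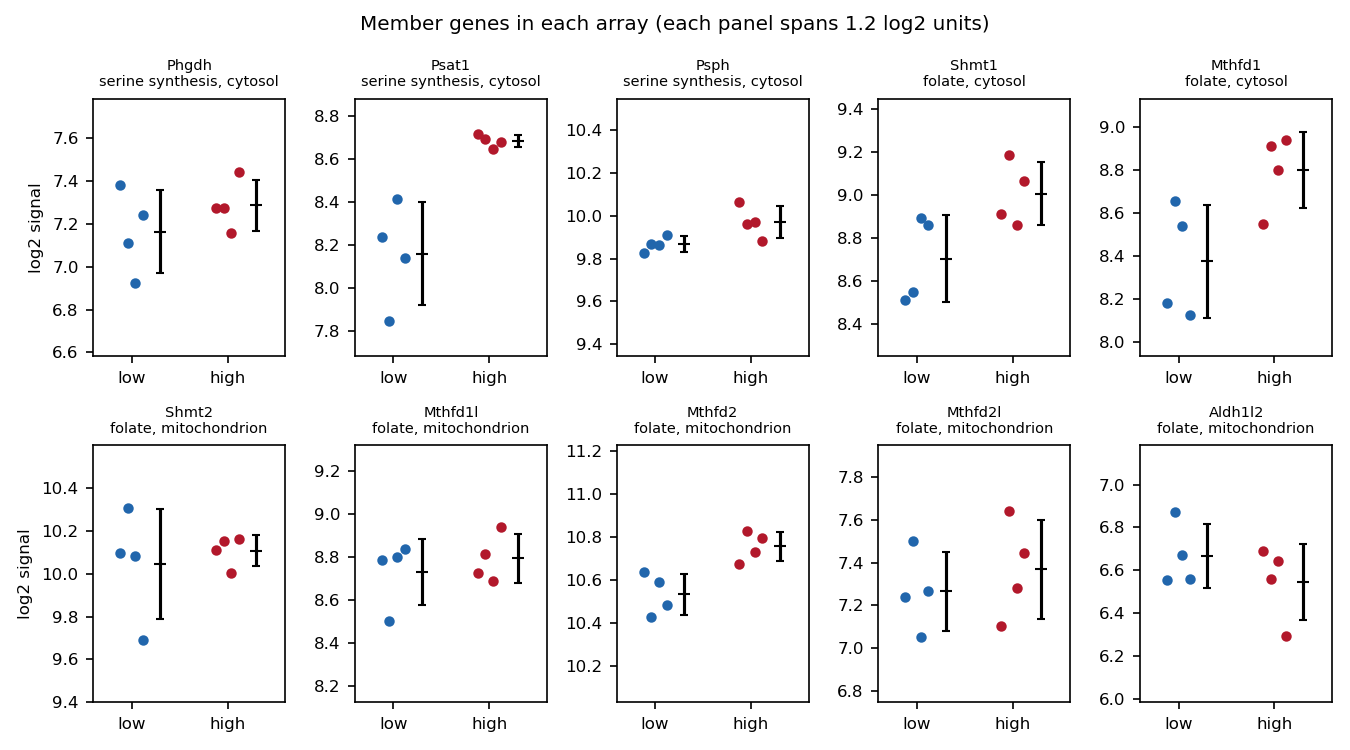
Log2 signal of each member gene (vertical axis, each panel spanning 1.2 log2 units) in the 4 TMRM/MG-low (blue) and 4 TMRM/MG-high (red) arrays, with replicates 1 to 4 from left to right and the mean and SD as a bar. Psat1 and Mthfd2 have no overlap between the groups, and the other 8 genes do.

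The cytosolic folate genes come next. SHMT1 is the cytosolic hydroxymethyltransferase. Its gene read 8.51, 8.55, 8.89 and 8.86 in the low arrays and 8.91, 9.19, 8.86 and 9.07 in the high arrays. Low replicates 1 and 2 were the lowest, and low replicate 3 overlapped high replicate 3. The difference was 0.30 (SE 0.11, 95% interval 0.055 to 0.55), with an unadjusted p of 0.0208 by limma and an adjusted p = 0.122.

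MTHFD1 is a trifunctional enzyme that interconverts the cytosolic folate forms and takes up formate from the mitochondrion. Its gene read 8.18, 8.65, 8.54 and 8.12 in the low arrays and 8.55, 8.91, 8.80 and 8.94 in the high arrays. High replicate 1 lay below low replicate 2, and the other 3 high arrays were above all low arrays. The difference was 0.43 (SE 0.13, 95% interval 0.14 to 0.72, limma adjusted p = 0.0701). It passed the threshold without high replicate 1 (0.51, limma adjusted p = 0.0418) and with the replicate number as a block (limma adjusted p = 0.0486).

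The mitochondrial folate genes are the largest group, with 5 members. SHMT2 feeds serine carbon into the mitochondrial arm. Its gene read 10.10, 10.31, 10.08 and 9.69 in the low arrays and 10.11, 10.15, 10.004 and 10.16 in the high arrays. Low replicate 2 was the highest of all 8 arrays and low replicate 4 the lowest. The difference was 0.062 (SE 0.12, 95% interval -0.20 to 0.32, limma adjusted p = 0.796), and it was -0.056 without low replicate 4.

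MTHFD2 is the NAD-dependent dehydrogenase and cyclohydrolase of the mitochondrial arm, known for its rise in proliferating and activated cells. Its gene read 10.64, 10.43, 10.59 and 10.48 in the low arrays and 10.68, 10.83, 10.73 and 10.79 in the high arrays. The groups did not overlap, but the gap between low replicate 1 and high replicate 1 was small. The difference was 0.22 (SE 0.083, 95% interval 0.044 to 0.40), with an unadjusted p of 0.0190 by limma and an adjusted p = 0.116.

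MTHFD2L, the related isozyme, read 7.10 to 7.64 in the high and 7.05 to 7.501 in the low arrays, which overlapped almost fully. Its difference was 0.10 (SE 0.13, 95% interval -0.17 to 0.38), and its signal exceeded 60.2% of the negative controls in the high arrays. MTHFD1L, which releases formate from the mitochondrial folate pool, read 8.69 to 8.94 in the high and 8.50 to 8.84 in the low arrays. Its difference was 0.062 (SE 0.098, 95% interval -0.15 to 0.28). Low replicate 2 of Mthfd1l stood below its group, and without it the difference was -0.015.

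ALDH1L2 oxidises formyl-tetrahydrofolate and yields NADPH in the mitochondrion. Its gene read 6.29 to 6.69 in the high and 6.55 to 6.87 in the low arrays. The signal was above the array's negative control median on 1 of the 8 arrays only, so no fold is given for it. The difference in signal was -0.12 (SE 0.11, 95% interval -0.36 to 0.12, limma adjusted p = 0.538).

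**Figure D2:**
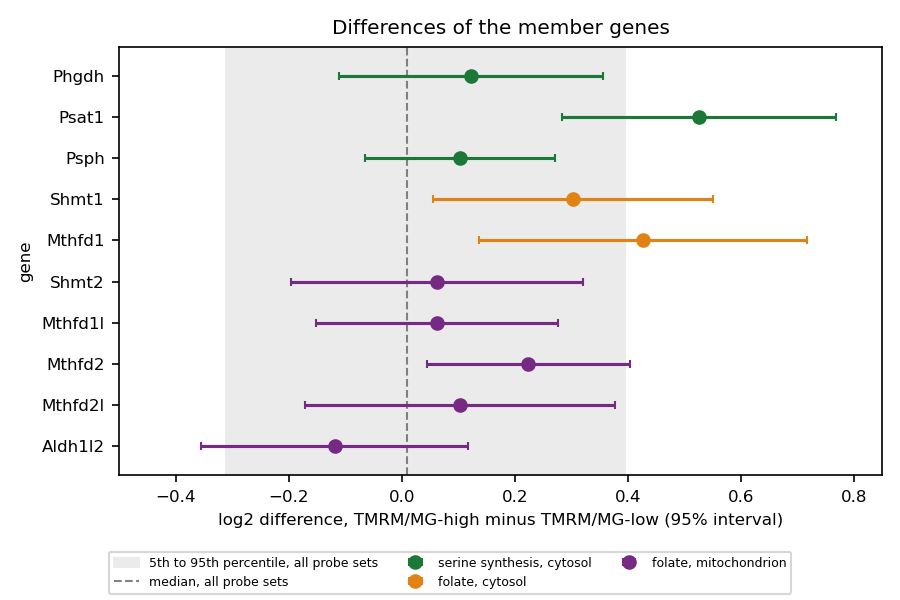
Log2 difference of each member gene, TMRM/MG-high minus TMRM/MG-low (horizontal axis), with its 95% interval, coloured by role and compartment. The grey band holds the 5th to 95th percentile of all probe sets (-0.31 to 0.40) and the dashed line is their median; Psat1 at 0.53 and Mthfd1 at 0.43 lie to the right of the band.

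Over the whole array, 5.28% of 22206 probe sets were called higher and 2.96% lower by limma at an adjusted p of 0.05, and among the 10 members 1 was called higher and 0 lower. The split of the calls depended on scaling: 1173 were higher and 658 lower as deposited, 852 and 858 after quantile normalization, and 933 and 698 after median centring. At an unadjusted p under 0.05 the members had 4 of 10 (Psat1, Mthfd1, Mthfd2 and Shmt1), all higher, against 15.3% of all probe sets for that direction and 25.5% for both. Groups did not overlap in 2 of the 10, both with the high arrays above, against 9.7% of all probe sets with the high arrays above and 6.37% with the low arrays above. The median difference of the members was 0.11, against 0.0093 over all probe sets, and 9 of 10 differences were above 0, against 52.1% of all probe sets. Control probe sets differed in both directions. The mean of 4 poly-A spike-in RNAs differed by -1.23 and the control bioB by -0.97, high minus low. The medians of the negative and positive controls read higher on average in the high arrays. The median of the 5222 negative controls differed by 0.096 and that of the 1324 positive controls by 0.16. Whether such an offset is part of the members' differences was not tested. With 10 genes, 1 call is near what the background share gives.

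The cytosolic and mitochondrial enzymes were set side by side by their counts. Of all probe sets, 52.1% had a difference above 0, 5.28% were called higher and 15.3% were higher at an unadjusted p under 0.05. All 5 cytosolic members, of serine synthesis and folate together, had differences above 0, with a median of 0.30. Their 1 call was Psat1, a serine synthesis gene, and the 2 cytosolic folate genes had 0 calls. At an unadjusted p under 0.05 by limma the 5 had 3. Of the 5 mitochondrial members, 4 were above 0 (3 after quantile normalization, where Shmt2 was -0.018), with a median of 0.062 and 0 calls by limma (1 at an unadjusted p under 0.05, Mthfd2). After each gene was centred on its mean over the 8 arrays, the mean of the 2 cytosolic folate genes ran from 0.010 to 0.33 in the high and from -0.38 to -0.0049 in the low arrays. That of the 5 mitochondrial genes ran from -0.020 to 0.12 in the high and from -0.11 to 0.041 in the low arrays, and so overlapped. These set means carry no test.

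**Figure D3:**
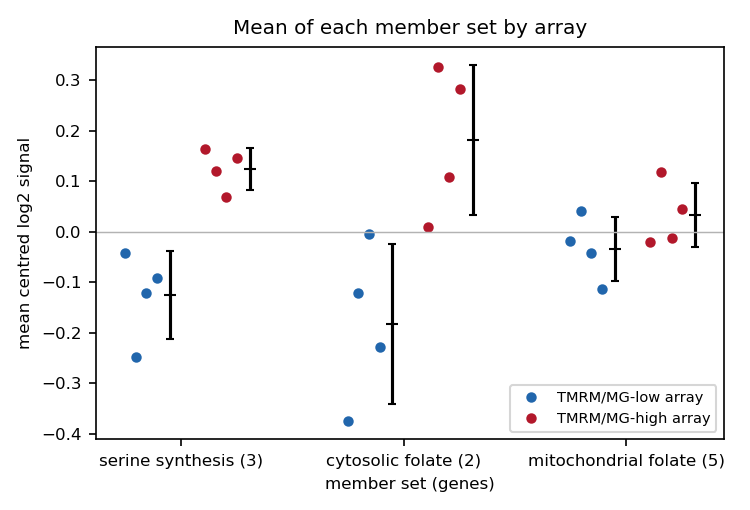
Mean centred log2 signal of the 3 serine synthesis, 2 cytosolic folate and 5 mitochondrial folate genes (horizontal axis) in each TMRM/MG-low (blue) and TMRM/MG-high (red) array, with mean and SD of the arrays as a bar. High and low arrays are apart for the serine synthesis genes, of which Psat1 alone was apart as a single gene. They are narrowly apart for the cytosolic folate genes (lowest high array 0.010, highest low array -0.0049), each of which overlapped as a single gene. They overlap for the mitochondrial folate genes. These means carry no test.

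Whether a mitochondrial enzyme and its cytosolic counterpart changed unequally was tested directly, by the difference of their log2 signals within each array. Such a difference compares changes between fractions, since signals of different probe sets are not levels on one scale. Shmt2 minus Shmt1 was 1.101 ± 0.099 in the high arrays and 1.34 ± 0.42 in the low (SD, n = 4), a shift of -0.24 (two-sided exact permutation p = 0.343, adjusted p = 0.571 over 5 pairs). Mthfd1l minus Mthfd1 shifted by -0.36 (exact permutation p = 0.171, adjusted p = 0.571) and Mthfd2 minus Mthfd1 by -0.20 (exact permutation p = 0.286, adjusted p = 0.571).

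The last 2 of these pairs share Mthfd1 and are not independent. Between the mitochondrial isozymes, Mthfd2l minus Mthfd2 shifted by -0.12 (exact permutation p = 0.486, adjusted p = 0.607). The cytosolic counterpart of Aldh1l2, Aldh1l1, is not among the 10 and differed by 0.00044 (SE 0.13, limma adjusted p = 0.999). This pair was planned as the fifth, but Aldh1l2 was near the background, so its shift is not read as a comparison of the enzymes. High and low arrays overlapped in each of the 5 pairs, and in each the low arrays were more spread than the high arrays. The smallest p that 4 against 4 arrays allow is 0.0286, before the adjustment over the 5 pairs. A single pair at that value, with the others above it, would not pass the threshold after adjustment. The test could therefore not call a pair on its own. It does not decide whether the cytosolic and mitochondrial enzymes changed unequally.

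**Figure D4:**
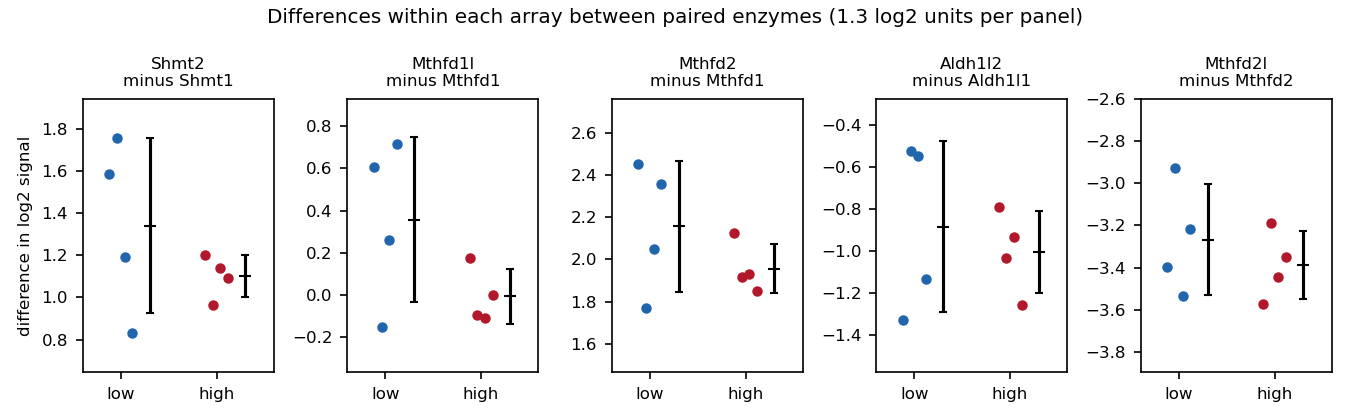
Difference in log2 signal between 2 enzymes within an array (vertical axis, 1.3 log2 units per panel) for the 4 TMRM/MG-low (blue) and 4 TMRM/MG-high (red) arrays, with mean and SD as a bar. The low arrays are more spread than the high arrays in every panel, and the groups overlap in all 5; Aldh1l2 was near the background.

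The neighbours of these enzymes were read from 8 lists of related pathways, with 103 of 115 genes measured and the other 12 not analysed here. By limma 8 of the 103 rose (7.77%, against 5.28% of all probe sets) and 2 fell (1.94%, against 2.96%), and their median difference was 0.037. The count of rises followed single arrays: it was 3 without low replicate 1, 4 without low replicate 2, 3 without low replicate 4, 2 without high replicate 2 or high replicate 3, 3 without high replicate 4, and 11 without low replicate 3 or high replicate 1. Falls numbered 1 in 6 of these fits, 4 without low replicate 3 and 2 without high replicate 1.

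Among 20 genes of serine transport and use, 3 rose and 0 fell. Sfxn1, the mitochondrial serine carrier that supplies SHMT2, read 10.6 ± 0.14 in the high arrays and 10.1 ± 0.21 in the low (SD, n = 4; difference 0.45, SE 0.11, limma adjusted p = 0.0331). Serinc5 and Serinc1, membrane proteins named for serine incorporation into lipids, differed by 0.68 (SE 0.12) and 0.42 (SE 0.10). The Serinc5 call was kept in 8 of 8 fits leaving out 1 array, and those of Sfxn1 and Serinc1 in 2 of 8 each (highest limma adjusted p 0.101 and 0.0812). The list's median difference was 0.055.

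Of 11 other folate enzymes and carriers, Mthfs rose and none fell (difference 0.28, SE 0.079, limma adjusted p = 0.0489, kept in 1 of 8 fits leaving out 1 array, up to 0.125). The Mthfs call was also lost after quantile normalization (limma adjusted p = 0.0917), after median centring (0.073) and with the replicate block (0.0701). MTHFS returns a storage form of folate to the active pool. The list's median was 0.00044. In the glycine cleavage system, which also feeds mitochondrial folate, 1 of 5 rose: Dld, a subunit it shares with pyruvate dehydrogenase (0.48, SE 0.094, limma adjusted p = 0.0145, kept in 6 of 8, up to 0.0524).

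Purine synthesis, which uses the folate-bound carbon, had 1 rise and 0 falls among 11 measured genes, with a median difference of 0.25. The gene was Adss, an adenylosuccinate synthase that follows the folate-dependent steps (0.49, SE 0.11, limma adjusted p = 0.0242, kept in 3 of 8, up to 0.0761). At an unadjusted p under 0.05 the list had 7 of 11 in either direction, against 25.5% of all probe sets. Of these 7, Impdh1 was lower (-0.32), and its signal was above the negative control median on 0 of 8 arrays. At that threshold the serine transport list had 8 of 20, the methionine cycle list 5 of 13 and the pyrimidine list 2 of 10. Pyrimidine and deoxynucleotide synthesis had 1 rise among 10, Umps, which completes UMP (0.62, SE 0.15, limma adjusted p = 0.0296, kept in 2 of 8, up to 0.0905), and a median of 0.078.

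The methionine cycle and transsulfuration list had 1 rise and 0 falls among 13. This was Mtap, which starts the salvage of methionine (0.64, SE 0.11, limma adjusted p = 0.0101), and its call was kept in 8 of 8 fits leaving out 1 array. Glycolysis around 3-phosphoglycerate, the substrate of PHGDH, had 0 calls by limma among 8 (1 at an unadjusted p under 0.05). Pgk1, which makes 3-phosphoglycerate, differed by 0.29 (SE 0.096, adjusted p = 0.0813) and Pgam2 by -0.12 (SE 0.091, adjusted p = 0.43). Pgk1 was called in 1 of 8 fits leaving out 1 array.

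In the list of ATF4, its upstream kinases and its targets outside the 10 genes, Atf4 and its targets did not pass the test. Of 25 measured, 0 rose and 2 fell, both of them kinases: Eif2ak4, the amino acid sensor kinase GCN2 that acts upstream of ATF4 (-0.47, SE 0.089, limma adjusted p = 0.0129), and Eif2ak3, the endoplasmic reticulum sensor PERK (-0.30, SE 0.082, adjusted p = 0.0428). The Eif2ak4 call was kept in 8 of 8 fits leaving out 1 array and that of Eif2ak3 in 2 of 8 (up to 0.128). With the replicate number as a block Eif2ak3 was not called (limma adjusted p = 0.0517). The median of the list was -0.026. At an unadjusted p under 0.05 it had 5 of 25, against 25.5% of all probe sets.

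**Figure D5:**
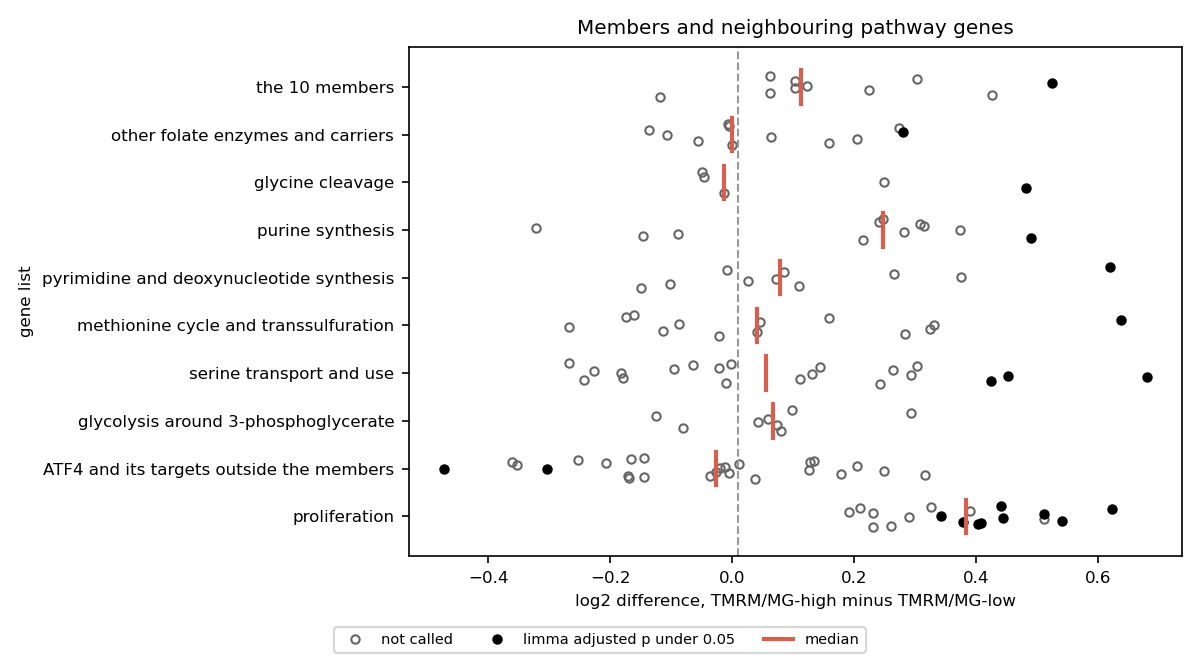
Log2 difference, TMRM/MG-high minus TMRM/MG-low (horizontal axis), of each measured gene in the 10 members, the 8 neighbouring lists and the proliferation list (1 circle a gene; filled where limma's adjusted p was under 0.05; red bar, median; dashed line, median of all probe sets). The ATF4 list holds the 2 calls below 0, and the proliferation list has the highest median, 0.38.

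Other features of the arrays moved with the fractions. Of 18 measured proliferation genes, 9 rose and 0 fell (limma), with a median difference of 0.38, as in Pclaf (0.62), Cdc20 (0.54), Kif23 (0.44) and Ccnb2 (0.38), and Mki67 at 0.39 did not pass (adjusted p = 0.0587). Their mean signal ran from 10.4 to 10.6 in the high and from 10.03 to 10.2 in the low arrays. Of 13 plasmacytoid dendritic cell markers 11 rose (mean signal 9.95 to 10.4 against 9.23 to 9.41; Siglech by 1.81), of 9 T and NK cell markers 4 fell (8.82 to 9.37 against 9.20 to 10.05), and of 6 neutrophil markers 1 fell (8.33 to 9.16 against 9.20 to 9.89). Of 10 macrophage and monocyte markers 2 rose, Ly6c1 (0.72) and Ccr2 (0.51), and the list's mean signal overlapped between the fractions (9.71 to 10.4 against 9.74 to 9.96). These counts stand beside 5.28% of all probe sets called higher and 2.96% lower. The mean of 4 poly-A spike-in RNAs ran from 5.99 to 6.96 in the high fraction and from 7.27 to 7.85 in the low. Other controls differed too: bioB ran from 9.93 to 10.2 in the high and from 10.9 to 11.4 in the low arrays. The median of the positive controls ran from 10.38 to 10.49 in the high and from 10.21 to 10.37 in the low. The part of these in the Psat1 result was not tested, except that with the spike-in mean as a covariate the Psat1 difference was 0.36 and not called (limma adjusted p = 0.993); that covariate separates the same fractions. The cDC1 genes Xcr1, Clec9a, Irf8 and Batf3 were measured above 98.9% of negative controls in both fractions, and 0 of 10 cDC1 markers were called by limma (3 at an unadjusted p under 0.05). Of the 10 differences, 5 were above 0 and 5 below. The 3 were Cd8a (0.31) and Tlr3 (0.19), both higher, and Clec9a (-0.21), which was lower. Clec9a was called lower after quantile normalization (-0.29, limma adjusted p = 0.0398) and when limma's prior variance followed the signal robustly (adjusted p = 0.0125). In sorted bulk cells, a change in the share of some cells and a change in RNA per cell cannot be told apart.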

How the data were processed

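Signals on the log2 scale, as deposited by the authors, were used, 1 column per array. The submitters' processing notes name RMA and Affymetrix Expression Console 1.1, and per the labels the kit was Whole Transcript Plus. RMA brings the arrays' distributions together, which takes out much of any change common to most transcripts. The medians of the tested probe sets still ran from 8.11 to 8.16 between arrays, and the calls changed after quantile normalization. For the probe sets no genome build was given in the sources used here. Scanner files were not used here. Precision is limited by the number of arrays.

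Of 28846 rows, 6640 control probe sets were left out and 22206 tested, of which 19572 had 1 gene symbol in the platform annotation. All 10 members matched RefSeq by Entrez ID. High was compared with low by lmFit and eBayes (limma 3.58.1, R 4.3.3), two-sided, without a block, with Benjamini-Hochberg adjustment over all tested probe sets and a threshold of 0.05. The same code was tested on simulated data. Isozyme pairs were compared by exact permutation. A gene with several probe sets was read from that of highest mean. Figures were drawn with matplotlib 3.10.9.

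The members and gene lists were chosen with earlier results of these data known. Named by rule were all 10 members, Aldh1l1, up to 4 called genes of smallest p in each neighbouring list (2 in a list without calls), and the markers Xcr1, Clec9a, Irf8, Batf3, Siglech and Mki67. Outside this rule, Ly6c1, Ccr2, Cd8a, Tlr3, Impdh1, Itgae, Ncr1, S100a8, Slc7a11 and Alas2 were named after their values were seen. Alternatives were a replicate block, other scalings, a filter on dim probe sets, other variance models, array weights, other thresholds, averaged probe sets, a spike-in covariate and leaving out each array.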

Additional observations from a re-analysis of the deposited data

Results flagged for a closer look

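Mthfd1l in TMRM/MG-low replicate 2 lay apart from the other arrays of its group, at a log2 signal of 8.50 where the others were between 8.79 and 8.84. Its gap was 0.845 of the group's range, above Dixon's 95% critical value for 4 samples. Of 22 groups of 4 tested (the 10 members and Aldh1l1 in both fractions), 1 was singled out, and chance does so in about 1 of 20.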

How the results depend on the processing

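Psat1 was higher in every alternative, from 0.36 to 0.61. It was the 1 member called in the main setting, after quantile normalization, median centring and the filter on dim probe sets, and with averaged probe sets. With an intensity trend and robust fit, array weights, or a threshold of 0.1, 2 members were called, Mthfd1 being added. Members called were 0 at a threshold of 0.01, under the spike-in covariate and in the unmoderated test (Psat1 adjusted p = 0.172), and 0 to 2 on leaving out 1 array. The covariate differs between the fractions without overlap, so that fit has little left to compare.

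Same-numbered arrays deviated together with r = 0.0152 to 0.271 over all probe sets, and differently numbered arrays with r = -0.294 to 0.168. Itgae followed the number: 9.56, 10.2, 10.4 and 9.38 in the low arrays and 9.46, 9.98, 10.01 and 9.26 in the high. So did Ncr1 (9.68, 10.5, 8.84 and 10.2 against 8.68, 9.44, 8.50 and 9.42). S100a8 did too (9.87, 10.7, 10.5 and 9.35 against 9.14, 9.66, 9.6 and 8.59). Slc7a11 did not (10.2, 9.32, 9.71 and 9.58 against 9.23, 9.68, 9.01 and 9.47). Nor did Alas2 (8.80, 8.94, 8.60 and 8.20 against 8.01, 8.25, 8.77 and 8.15). These are examples, and the genes that followed the number were not counted. The labels do not say what the numbers mark, so the main test was unpaired. Whether same-numbered arrays share a source was not tested. With the replicate block 2 members were called (Psat1, adjusted p = 0.0263, and Mthfd1, adjusted p = 0.0486), 1 neighbouring gene was lower (Eif2ak3 no longer passed), and no isozyme pair passed, the smallest possible exact p being 0.125.

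Neighbouring genes higher and lower were 13 and 4 with the trend and robust fit and with array weights, 17 and 5 at a threshold of 0.1, and 0 and 0 at 0.01, with the unmoderated test and with the covariate; leaving out 1 array gave 2 to 11 and 1 to 4. All probe sets higher and lower were 73 and 113 at 0.01, 2061 and 1174 at 0.1, 11 and 30 unmoderated, 0 and 0 with the covariate (1950 higher with the trend and robust fit), and 183 to 1680 and 218 to 793 on leaving out 1 array.

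Signs turned for Shmt2 after quantile normalization (-0.018) and for Aldh1l1 after median centring (-0.013). With the covariate they turned for Shmt1 (-0.021), Mthfd1l (-0.15), Aldh1l2 (0.12), Pgam2 (0.18), Batf3 (-0.11) and the pairs Shmt2 minus Shmt1 (0.34) and Aldh1l2 minus Aldh1l1 (0.093). The cause was not tested. On leaving out 1 array, Mthfd1l ran from -0.015 to 0.098, Shmt2 from -0.056 to 0.15 and Aldh1l1 from -0.11 to 0.11.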
